A study of Mus musculus with 20 samples.

Results

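Circadian clock genes were followed in the POA, the preoptic area of the forebrain. Of the 25239 genes in the count table, 10 were taken by symbol: Arntl, Npas2, Per1, Per2, Per3, Cry1, Ciart, Nr1d1, Nr1d2 and Dbp. All 10 had reads in each of 20 mice, with 425 to 13202 counts per gene and mouse, and all passed the filter on low counts.

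RNA-seq was carried out on the POA of 20 male mice, 5 in each of 4 groups. dnFGFR mice were homozygous for a transgene that encodes a truncated FGF receptor under a rat GnRH promoter, so that FGF signalling is lowered in GnRH neurons and not in the POA at large. Control mice of matching background came from matings of heterozygous dnFGFR siblings. Each male was paired at PND20 with a same-sex (SS) or opposite-sex (OS) partner and collected at PND320, after 300 days of cohabitation, and OS-housed pairs bred and reared young. Each genotype thus had an SS and an OS group, and all mice were kept on a light-dark cycle with phases of equal length. The hour at which each mouse was taken is not given in the sources used here. Sacrifice dates fell in June and July for control mice and in May for dnFGFR mice, apart from 1 dnFGFR SS mouse taken in November, so that genotype and date cannot be told apart. Among control mice, SS mice 4 and 5 were the only mice of July, so that housing was partly tied to date.

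The mammalian clock is a feedback loop of transcription that runs in nearly every cell and is set to the light cycle by the suprachiasmatic nucleus, which lies just behind the POA. The proteins of Arntl (BMAL1) and of Clock or Npas2 bind together to E-box sequences and switch on the Per, Cry, Nr1d and Dbp genes, and the PER and CRY proteins then shut off that activity. In tissues with a running clock, Arntl and Npas2 transcripts peak when those of Nr1d1, Dbp and Ciart are near their trough.

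Promoter windows of RefSeq on GRCm38.p6, from 250 bases before to 50 bases after an annotated start, were found for 9 of the 10 genes, with none for Per2. Windows are shown for genes with a clock motif and for Dbp, on which several results below turn. Capitals mark the E-box CACGTG, the D-box TTATGTAA, to which DBP and its relatives bind, or the core of the ROR element TAGGTCA, to which the proteins of Nr1d1 and Nr1d2 bind.
Per1, chr11:69098699-69098998, plus strand: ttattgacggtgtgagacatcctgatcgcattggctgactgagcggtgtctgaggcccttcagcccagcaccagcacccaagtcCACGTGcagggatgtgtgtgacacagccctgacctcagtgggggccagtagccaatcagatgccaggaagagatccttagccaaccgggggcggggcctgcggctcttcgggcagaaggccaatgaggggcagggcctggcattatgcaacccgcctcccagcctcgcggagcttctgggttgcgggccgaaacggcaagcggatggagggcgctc
Cry1, chr10:85185005-85185304, minus strand: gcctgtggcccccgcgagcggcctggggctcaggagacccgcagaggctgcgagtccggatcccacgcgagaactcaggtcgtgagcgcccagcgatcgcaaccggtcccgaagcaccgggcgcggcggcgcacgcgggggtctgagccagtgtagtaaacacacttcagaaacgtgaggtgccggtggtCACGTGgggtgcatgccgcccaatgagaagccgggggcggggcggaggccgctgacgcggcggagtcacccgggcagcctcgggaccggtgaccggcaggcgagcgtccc
Ciart, chr3:95882179-95882478, minus strand: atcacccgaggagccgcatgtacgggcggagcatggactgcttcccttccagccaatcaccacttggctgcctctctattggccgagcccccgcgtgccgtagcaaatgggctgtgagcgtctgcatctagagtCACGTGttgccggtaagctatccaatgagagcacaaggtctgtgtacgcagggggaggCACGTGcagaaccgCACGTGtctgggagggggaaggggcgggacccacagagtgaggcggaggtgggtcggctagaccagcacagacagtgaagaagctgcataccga
Per3, chr4:151044616-151044915, minus strand: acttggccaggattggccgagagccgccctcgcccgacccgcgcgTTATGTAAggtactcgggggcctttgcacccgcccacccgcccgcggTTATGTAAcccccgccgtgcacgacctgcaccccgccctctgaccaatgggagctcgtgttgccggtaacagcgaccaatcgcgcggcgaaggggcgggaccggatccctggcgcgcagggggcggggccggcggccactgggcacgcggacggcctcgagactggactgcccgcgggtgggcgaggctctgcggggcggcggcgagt
Arntl, chr7:113207261-113207560, plus strand: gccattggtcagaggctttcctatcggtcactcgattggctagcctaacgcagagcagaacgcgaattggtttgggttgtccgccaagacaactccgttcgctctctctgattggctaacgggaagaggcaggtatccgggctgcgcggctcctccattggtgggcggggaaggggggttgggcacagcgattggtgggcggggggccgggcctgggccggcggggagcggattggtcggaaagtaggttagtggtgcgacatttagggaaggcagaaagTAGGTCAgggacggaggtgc
Dbp, chr7:45704997-45705296, plus strand: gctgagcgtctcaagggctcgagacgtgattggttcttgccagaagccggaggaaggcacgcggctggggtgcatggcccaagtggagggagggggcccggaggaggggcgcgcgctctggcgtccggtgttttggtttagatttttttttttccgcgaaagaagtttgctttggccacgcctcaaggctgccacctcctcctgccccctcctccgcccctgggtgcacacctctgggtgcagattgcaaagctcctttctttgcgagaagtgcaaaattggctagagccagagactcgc
The E-box occurred in Per1, Cry1 and Ciart, where it stood 3 times, and in 8.09% of all 27025 genes with a window. Per3 held the D-box 2 times within 205 bases of its start, against 1.23% of genes with at least 1 D-box of the forms TTATGTAA or TTACGTAA. Arntl held the ROR core 31 bases into its transcript, a motif of 2.97% of genes, and no window of the 9 genes held the cAMP element TGACGTCA (2.03% of genes). All motifs were sought on both strands, and the E-box reads the same on each. Dbp had none of these letters in its window, which says nothing of sites outside it.

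The genes lie on 7 chromosomes of GRCm38 in the RefSeq annotation. Arntl (chr7:113178471-113314126) and Dbp (chr7:45705100-45710203) share chromosome 7, and Per1 (chr11:69095108-69109965) and Nr1d1 (chr11:98767932-98775377) share chromosome 11. Npas2 (chr1:39193702-39363240) and Per2 (chr1:91415977-91459351) share chromosome 1. Per3 (chr4:150997018-151044707), Cry1 (chr10:85131700-85185054), Nr1d2 (chr14:18204056-18239106) and Ciart (chr3:95878500-95882257) are each alone on theirs. Exons of Dbp overlap those of Sphk2 on the opposite strand over 539 of the 2993 exonic bases of Dbp in GENCODE M21, and exons of Nr1d1 overlap those of Thra, also on the opposite strand, over 263 of 3077. Whether counting used the strand is not given in the sources used here, so reads of these overlaps may have been counted for either gene.

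Libraries held 32353578 to 39871353 counted reads. The library of dnFGFR OS mouse 5 stood apart, with reads on 18416 genes against 19101 to 19659 in the other 19 mice. Each library's trend on GC content, the slope of its genes' log2 deviations per 10 points of GC, was -0.35 in that mouse and -0.12 to 0.12 in the others. All 13 preoptic markers had reads (summed 254 to 341 CPM, counts scaled to the size of the library), as had all 8 striatal markers (2100 to 4160 CPM). The 13 markers of the suprachiasmatic nucleus summed to 76.0 to 139 CPM per mouse, with Avp from 0.739 to 49.9 CPM. The mean log2 level of these markers had r between -0.312 and 0.167 with Arntl, Dbp, Ciart, Per1 and Per2 across mice, with adjusted p of 0.436 or more (permutation test, 70 relations), and their part in the results below was not tested further. In whole tissue, a change in the number of cells and one in the RNA per cell cannot be told apart.

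Levels between genes were compared as median CPM per kilobase of exon over the 20 mice. Nr1d1, a repressor of Arntl, was the most abundant at 94.8 CPM per kb, with its lowest mouse (86.4) above the highest mouse for Dbp (60.7). Dbp (46.1), Nr1d2 (26.04), Per1 (24.8) and Npas2 (13.2 CPM per kb) came next, each with a range that overlapped that of its neighbour. Ciart (8.98), Per2 (8.40), Cry1 (7.68) and Per3 (7.34 CPM per kb) had overlapping ranges, and Arntl was the lowest at 3.57 CPM per kb, with no overlap with the others. Exonic length here is the union of all exons in GENCODE M21, which overstates the length of a single transcript, and unevenly so. It was 7523 bases for Arntl, 2993 for Dbp and 3077 for Nr1d1, whose longest transcripts have 3995, 1837 and 2721 bases. The order and the gaps around Nr1d1 and Arntl are those by this length. By longest transcript the ranges of Nr1d1 and Dbp overlap, the range of Arntl overlaps those of Per2, Cry1 and Ciart, and Per3 stands above Ciart.

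By the ratio of the highest to the lowest mouse, Dbp differed most and Nr1d1 least. The highest CPM over the lowest among 20 mice was 2.78-fold for Dbp, 2.24-fold for Ciart and 2.10-fold for Per1. It was 1.68-fold for Per3 and 1.65-fold for Per2. Arntl (1.501-fold), Npas2 (1.49-fold), Cry1 (1.48-fold), Nr1d2 (1.38-fold) and Nr1d1 (1.35-fold) spanned less. The spread within groups, as a residual SD of log2 CPM, was 0.32 for Dbp, larger than that of 75.1% of 17445 genes, and 0.28 for Ciart (70.7%). With each library's trend on GC content and length removed, Dbp no longer had the largest spread, at 0.18 (56.6%). It then lay below Ciart (0.25, 69.2%), Per2 (0.23, 66.6%) and Per1 (0.19, 59.5%). The values that follow are those before this removal. Arntl had a residual SD of 0.15 (larger than in 36.4% of genes) and Nr1d2 one of 0.11 (19.8%). Among the 9477 genes with a mean log2 CPM of at least 4, the median residual SD was lower, at 0.131, than the 0.183 of all 17445. Above 0.131 lay 7 of the clock genes, Arntl among them, and below it Cry1, Nr1d1 and Nr1d2. Counting error alone gives an SD of 0.02 for Dbp and 0.05 for Arntl at these depths. dnFGFR OS mouse 5 was the lowest of the 20 mice for Dbp, Per1 and Ciart and the highest for Nr1d2, and dnFGFR SS mouse 2 was the highest for Per1, Per2, Per3 and Ciart.

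**Figure D1:**
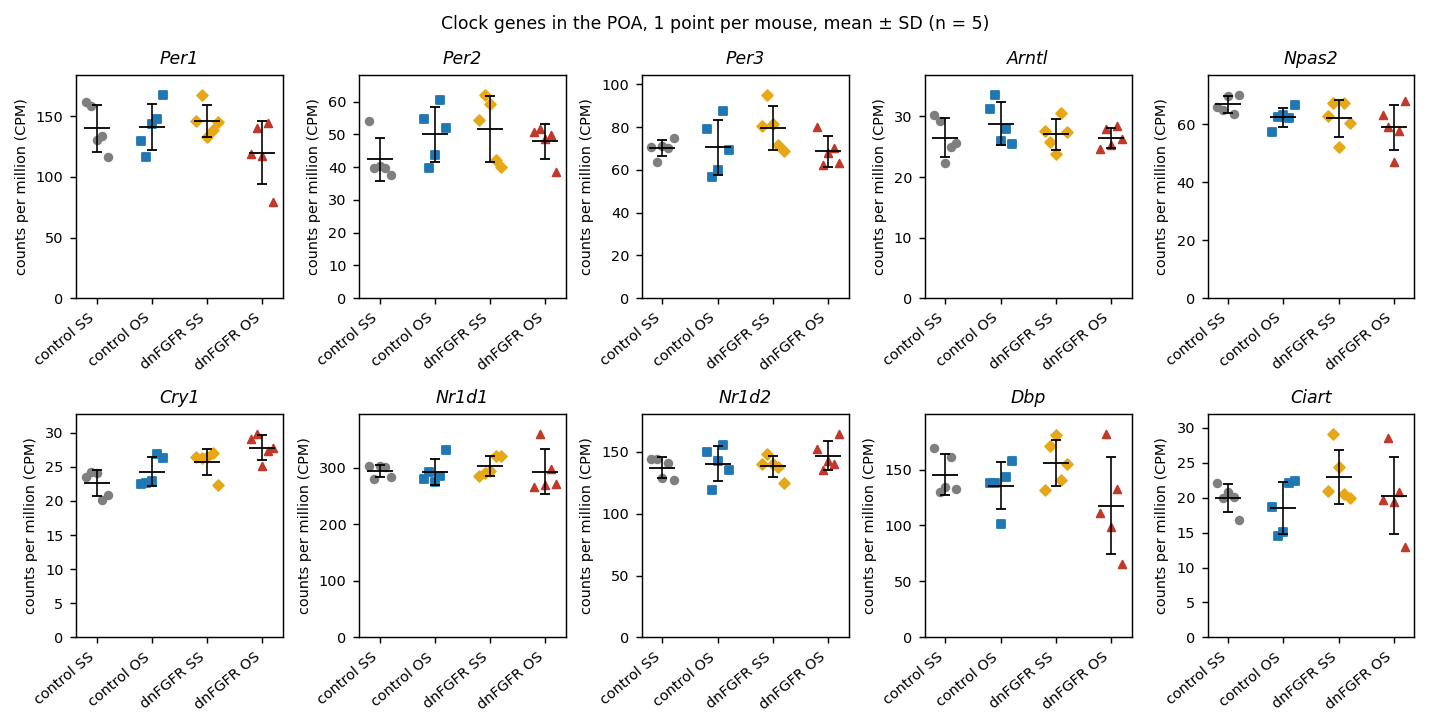
CPM (vertical axes, from 0) of each of the 10 clock genes in each mouse (1 point per mouse), by group, with the mean and SD of 5 mice. In each of the 4 fitted comparisons the ranges of both groups overlap for every gene, and the point at 65.4 CPM of Dbp is dnFGFR OS mouse 5.

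Arntl encodes the activator that all forms of the clock need, and its group means lay between 26.5 and 28.8 CPM. Control SS mice had 30.2, 29.3, 22.4, 24.9 and 25.6 CPM, and control OS mice 31.2, 33.6, 25.9, 27.9 and 25.5 CPM. dnFGFR SS mice had 27.7, 25.8, 23.8, 30.7 and 27.5 CPM, and dnFGFR OS mice 24.7, 28.0, 25.2, 28.4 and 26.2 CPM. The lowest and the highest mouse were both controls, and each group overlapped every other. Npas2, the forebrain partner of Arntl, lay between 47.0 CPM in dnFGFR OS mouse 3 and 70.1 CPM in control SS mouse 5. Its 5 control SS values, from 63.5 to 70.1 CPM, overlapped those of control OS mice from 57.4 to 66.7 CPM.

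Dbp encodes a transcription factor of the PAR bZIP family and is a direct output of the loop. Its values were 169.2, 130.2, 134.0, 161.0 and 132.8 CPM in control SS mice and 137.8, 138.0, 101.2, 143.3 and 157.6 CPM in control OS mice. In dnFGFR SS mice they were 132.1, 170.7, 180.6, 140.8 and 154.5 CPM, and in dnFGFR OS mice 111.2, 181.6, 98.4, 132.6 and 65.4 CPM. The dnFGFR OS group held both the lowest and the highest of the 20 mice, and its CV of 36.6% compared with 12.5% to 15.4% in the other 3 groups. Ciart, which encodes a repressor of the loop also called CHRONO, was 22.1, 19.9, 20.7, 20.1 and 16.8 CPM in control SS mice and 18.7, 14.5, 15.1, 22.0 and 22.3 CPM in control OS mice. dnFGFR SS mice had 20.9, 29.1, 24.4, 20.5 and 19.9 CPM of Ciart and dnFGFR OS mice 19.7, 28.5, 19.4, 20.8 and 13.0 CPM. The same dnFGFR OS mice, 2 and 5, were the highest and the lowest of their group for Ciart as for Dbp.

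The Per genes encode the repressors whose delayed return closes the loop, and Per1 and Per2 are also induced by glucocorticoids and by light. Per1 was 162.0, 158.5, 130.1, 133.7 and 116.3 CPM in control SS mice and 129.5, 116.8, 143.9, 147.6 and 167.4 CPM in control OS mice. It was 146.4, 167.7, 132.8, 138.6 and 145.4 CPM in dnFGFR SS mice and 118.8, 140.8, 116.9, 144.4 and 79.7 CPM in dnFGFR OS mice. Apart from the last of these mice, Per1 stayed between 116.3 and 167.7 CPM in every group. Per2 was 54.1, 39.7, 40.5, 39.8 and 37.6 CPM in control SS mice and 54.6, 39.8, 43.6, 60.5 and 51.8 CPM in control OS mice. dnFGFR SS mice had 54.5, 62.1, 59.3, 42.2 and 40.1 CPM of Per2 and dnFGFR OS mice 50.7, 51.7, 48.7, 49.7 and 38.4 CPM. Control SS mice other than mouse 1 lay between 37.6 and 40.5 CPM of Per2, and 4 of 5 control OS mice lay above them. Per3 ranged from 56.5 CPM in control OS mouse 2 to 95.1 CPM in dnFGFR SS mouse 2.

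Cry1, the partner of the PER proteins in repression, was 23.6, 24.2, 24.1, 20.1 and 20.9 CPM in control SS mice and 22.5, 22.7, 23.0, 26.9 and 26.3 CPM in control OS mice. dnFGFR SS mice had 26.5, 26.2, 26.4, 27.0 and 22.4 CPM and dnFGFR OS mice 29.1, 29.8, 25.1, 27.3 and 27.8 CPM. In both housings dnFGFR mice were on average higher, with overlap through dnFGFR SS mouse 5 and through 2 control OS mice. Nr1d1 and Nr1d2 encode the nuclear receptors REV-ERBα and REV-ERBβ, which hold down Arntl. Nr1d1 was 266.0 to 359.8 CPM and Nr1d2 119.2 to 164.4 CPM over the 20 mice.

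None of the 10 genes passed the test for OS against SS housing in control mice. Fold changes (edgeR quasi-likelihood test, adjusted over all tested genes, called at an adjusted p under 0.1) ran from -0.11 for Ciart to 0.24 for Per2 on the log2 scale. A total of 6 genes were higher and 4 lower, with a median of 0.0082 against 0.0021 for all genes. edgeR called 0 of the 10 genes, with 0 at an unadjusted p under 0.05, and 0.124% of 17004 genes, with 7.2% at an unadjusted p under 0.05, so that the count for the clock genes is near the background. DESeq2 called 0 of the 10 and 157 of all genes here. Also, 0 of 10 had groups that did not overlap, against 1.63% of all genes. Per2 came nearest, with a log2 fold change of 0.24 ± 0.12 (SE, 5 mice against 5, edgeR unadjusted p = 0.0508, adjusted p = 0.696). Without control SS mouse 1 it was 0.34 ± 0.10 (edgeR unadjusted p = 0.00466, adjusted p = 0.474). Arntl moved by 0.12 with a 95% interval of -0.08 to 0.32, and Dbp by -0.10 with one of -0.32 to 0.12.

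In dnFGFR mice, too, none of the 10 genes passed the test for OS against SS housing. Here 2 genes were higher and 8 lower, with a median log2 fold change of -0.09 against 0.0037 for all genes. edgeR called 0% of 16944 genes in this comparison, with 1138 (6.72%) at an unadjusted p under 0.05 beside 1 of the 10 clock genes, and DESeq2 called 5 genes, with no clock gene among them. Groups did not overlap for 0 of the 10 genes and for 1.42% of all genes. Dbp had the largest difference at -0.40 ± 0.21 (SE, 95% interval -0.84 to 0.04, edgeR adjusted p = 0.729). Per1 followed at -0.28 ± 0.14 (edgeR adjusted p = 0.726) and Per3 at -0.21 ± 0.10 (edgeR unadjusted p = 0.0497, adjusted p = 0.726). Without dnFGFR OS mouse 5, the library that stood apart, the log2 fold change was -0.25 ± 0.16 for Dbp (edgeR adjusted p = 0.857), -0.17 ± 0.09 for Per1 and -0.05 ± 0.14 for Ciart, which with all mice had been -0.18 ± 0.17. Without dnFGFR OS mouse 2 the values moved the other way, to -0.61 ± 0.17 for Dbp (edgeR unadjusted p = 0.00289, adjusted p = 0.195), -0.34 ± 0.14 for Per1 and -0.33 ± 0.15 for Ciart (edgeR unadjusted p = 0.0484, adjusted p = 0.295). With the GC and length trends of the libraries taken out, Dbp was at -0.22, Per1 at -0.13 and Nr1d1 turned from -0.05 to 0.06.

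The difference of the housing effect between genotypes passed the test for no clock gene. The interaction was called for 0% of 17445 genes by edgeR, with 595 at an unadjusted p under 0.05. The smallest p among the 10 genes belonged to Per2, at -0.35 ± 0.19 on the log2 scale (edgeR unadjusted p = 0.0737, adjusted p = 0.963). These p-values measure the spread between single mice and cover no repeat of the experiment.

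Between genotypes, the clock genes of SS-housed mice were mostly higher in dnFGFR than in control mice, without a call. A total of 9 were higher and 1 lower, with a median log2 fold change of 0.08 against 0.0042 for all genes. edgeR called 0 of the 10 genes, with 3 at an unadjusted p under 0.05, and 0.2% of 16992 genes, with 1467 (8.63%) at that p. Groups did not overlap for 0 of the 10 and for 1.57% of all genes. Cry1 was higher by 0.19 ± 0.07 (edgeR adjusted p = 0.468), Per3 by 0.18 ± 0.08 (adjusted p = 0.526 by edgeR) and Per2 by 0.29 ± 0.13 (edgeR adjusted p = 0.528). In OS-housed mice, 4 were higher and 6 lower in dnFGFR mice, with a median of -0.05 against 0.00013. There edgeR called 0 of the 10 genes, with 1 at an unadjusted p under 0.05, and 0.0531% of 16941 genes, with 1190 (7.02%) at that p, and groups did not overlap for 0 of the 10 and for 1.55% of all genes. Cry1 was again higher, by 0.20 ± 0.08 (edgeR unadjusted p = 0.0353, adjusted p = 0.666). These genotype comparisons share no mice with each other, and in both the genotype cannot be told apart from the sacrifice date.

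**Figure D2:**
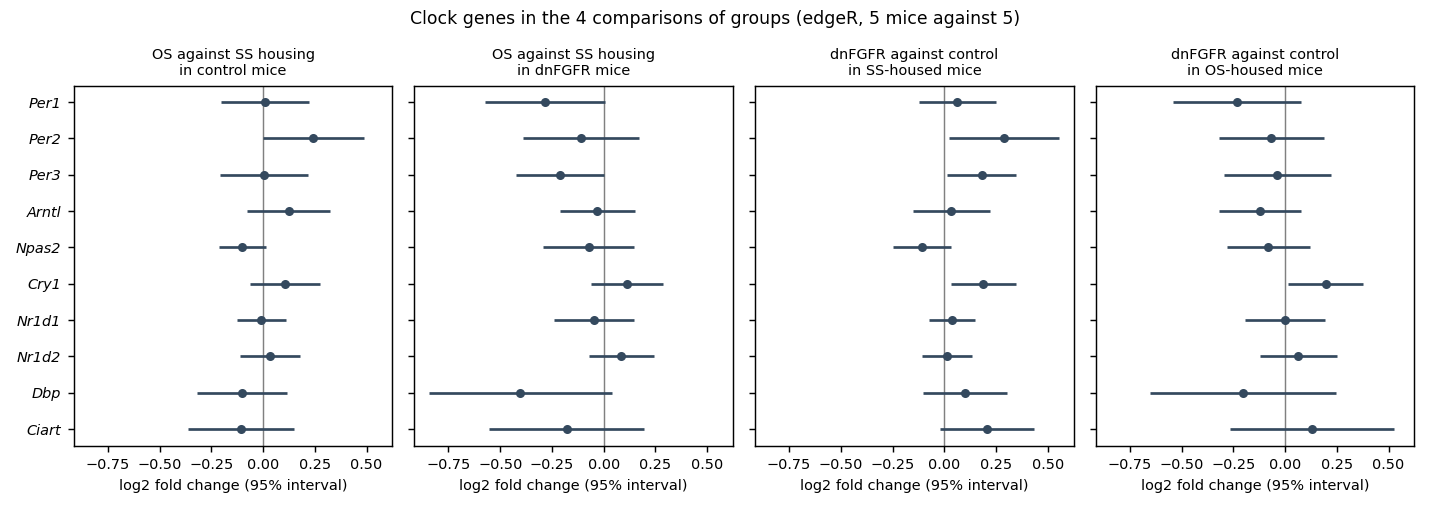
Log2 fold change (points, horizontal axis) with 95% interval (lines) of the 10 clock genes in the 4 comparisons of groups, from edgeR with 5 mice against 5. No gene passed an adjusted p of 0.1, and the widest intervals are those of Dbp and Ciart where dnFGFR OS mice are compared.

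No opposite movement of Arntl and Dbp was detected across mice. The log2 difference of Arntl minus Dbp ranged from -2.92 in dnFGFR SS mouse 3 to -1.32 in dnFGFR OS mouse 5, and from -2.92 to -1.96 in the other 19 mice. With values centred on group means, Arntl and Dbp had a Pearson r of 0.119 (n = 20 mice, permutation p = 0.623, adjusted p = 0.692 over 10 pairs) and a Spearman rho of 0.0481 (permutation p = 0.839, adjusted p = 0.927). Leaving out each mouse in turn gave r between 0.0258 and 0.201, and without the 2 mice farthest from the median of Arntl r was 0.0376. The pair had an r of 0.233 within the 10 control mice and 0.0593 within the 10 dnFGFR mice. The other 5 pairs of an activator with Nr1d1, Dbp or Ciart had r from -0.261 for Npas2 with Dbp to 0.143 for Arntl with Nr1d1 (permutation test, adjusted p = 0.692 for all 6). Arntl and Npas2, which share a phase, had an r of 0.0355 (permutation test, adjusted p = 0.883). Npas2 with Dbp had an r of 0.0554 without dnFGFR OS mouse 5, and of -0.484 without the 2 mice farthest from the median of Npas2 (permutation p = 0.0397, not adjusted). With the trend on GC content and length removed, r was 0.253 for Arntl with Dbp and -0.0185 for Npas2 with Dbp. Npas2 with Nr1d1 then had a positive r of 0.644 (permutation test, adjusted p = 0.01025). Leaving out dnFGFR OS mouse 5 as well gave 0.553 for that pair (permutation test, adjusted p = 0.0732).

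Dbp and Ciart, which share a phase, rose and fell together. Their r was 0.839 (n = 20 mice, permutation p = 3e-05, adjusted p = 0.0003) and their rho 0.773 (permutation p = 0.0001, adjusted p = 0.001). The relation held without dnFGFR OS mouse 5 (r = 0.741) and without the 2 mice farthest from the median of Dbp (r = 0.643). It held with the trend on GC content and length removed (r = 0.821, permutation test, adjusted p = 0.0001). Within the 10 dnFGFR mice r was 0.921 (permutation test, adjusted p = 0.0081) and within the 10 control mice 0.644 (permutation test, adjusted p = 0.220). Dbp and Nr1d1 had an r of 0.682 (permutation p = 0.00136, adjusted p = 0.0068) and a rho of 0.644 (permutation p = 0.00284, adjusted p = 0.0142). Without the 2 farthest mice their r was 0.502 (permutation test, adjusted p = 0.132), so that the call rests on those mice, and with the GC trend removed it was 0.197 (permutation test, adjusted p = 0.676), or 0.505 with dnFGFR OS mouse 5 left out as well (permutation test, adjusted p = 0.0931). Dbp with Per3 had an r of 0.200 (permutation p = 0.400, adjusted p = 0.692) and, with the GC trend removed, 0.529 (permutation test, adjusted p = 0.0557).

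**Figure D3:**
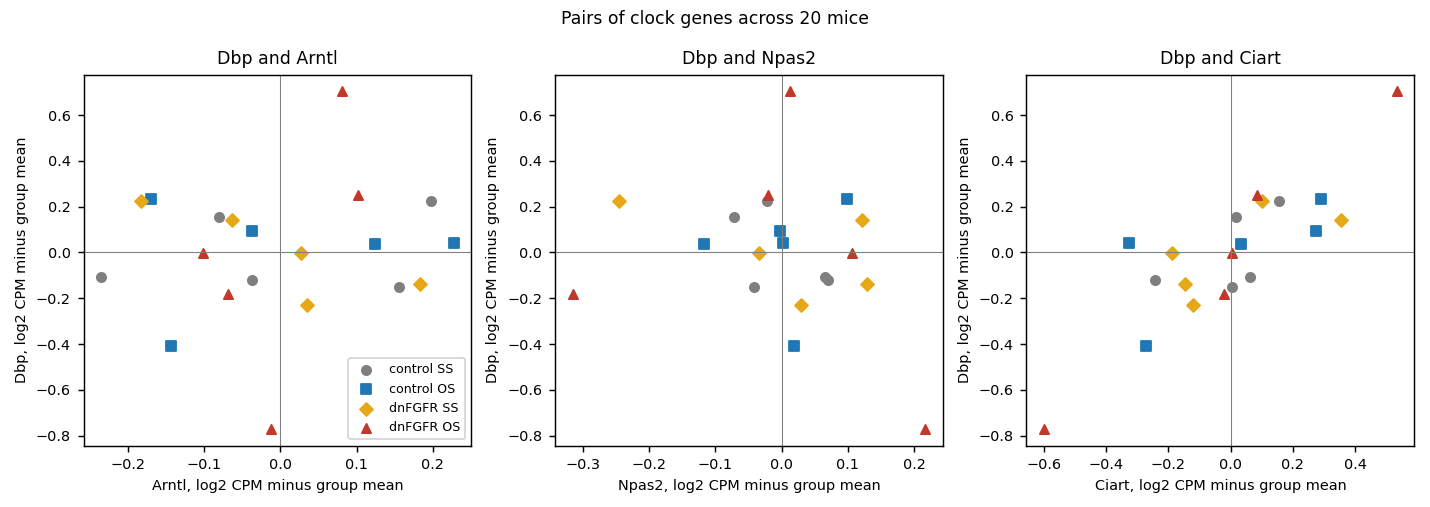
Dbp (vertical axes) against Arntl, Npas2 and Ciart (horizontal axes), as log2 CPM minus the group mean, 1 point per mouse, marked by group. Arntl and Dbp show no trend (r = 0.119), while Ciart and Dbp fall along a line (r = 0.839), with dnFGFR OS mice at both of its ends.

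All 45 pairs of clock genes were then described, without a test. Of these, 30 had a positive r, from -0.490 for Nr1d1 with Nr1d2 to 0.839 for Dbp with Ciart. The 6 pairs among Per1, Per2, Dbp and Ciart were all positive, between 0.541 and 0.839, and between 0.377 and 0.741 without dnFGFR OS mouse 5. Per2 with Per3 had an r of 0.728. Arntl stood outside this group, with r between -0.322 and 0.143 to the other 9 genes.

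Removing the trend on GC content and length placed Nr1d2 with these genes. Its r with Per2 went from 0.435 to 0.776, with Ciart from 0.0541 to 0.737 and with Dbp from -0.315 to 0.600. Part of this shift turned on 1 library. Without dnFGFR OS mouse 5, its r with Per2 went from 0.691 to 0.814, with Ciart from 0.399 to 0.791 and with Dbp from -0.0646 to 0.644. Per3 with Ciart went from 0.474 to 0.671 and Per3 with Dbp from 0.200 to 0.529. Nr1d1 with Ciart went from 0.513 to 0.138, a fall that turned on 1 library, since without dnFGFR OS mouse 5 it went from 0.468 to 0.416. Nr1d2 had the lowest GC content of the 10 genes at 41.8% of its longest GENCODE transcript, and Dbp the highest at 61.6%.

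**Figure D4:**
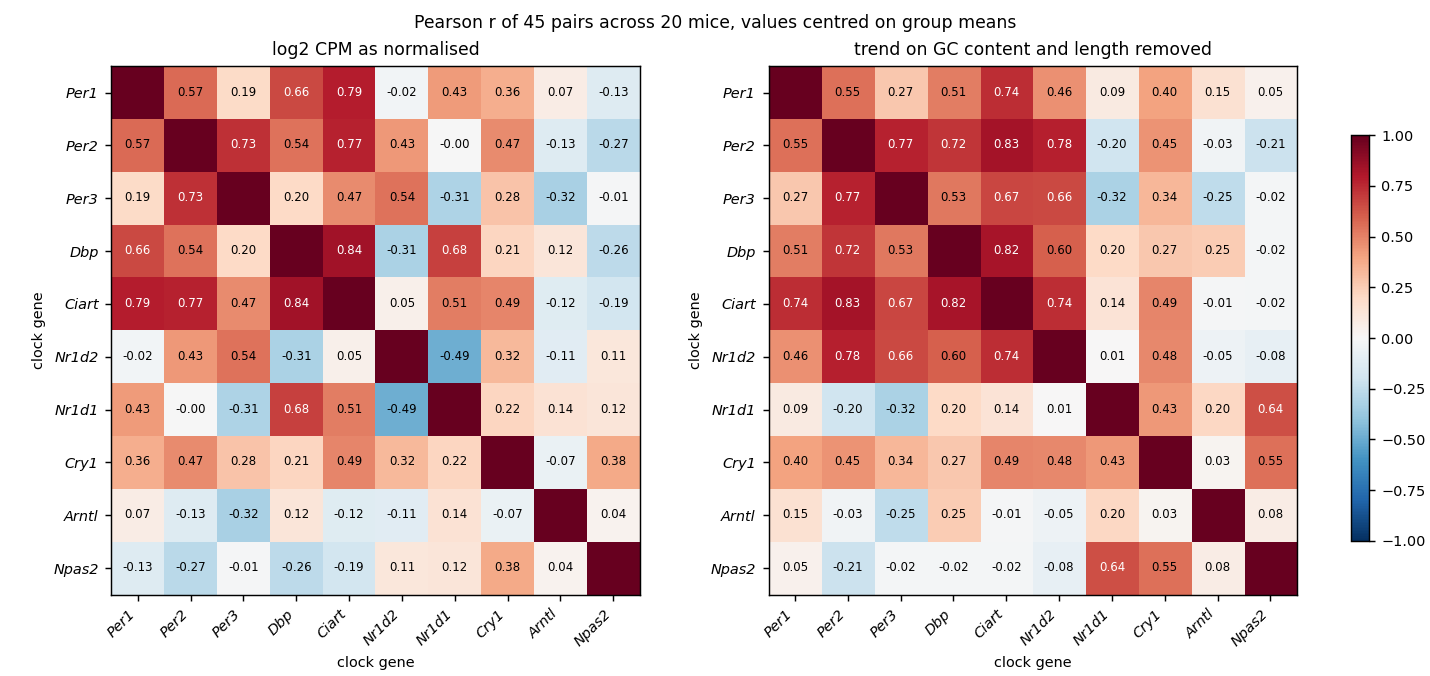
Pearson r of the 45 pairs of clock genes over 20 mice, centred on group means (colour and number), with the values as normalised on the left and with the trend on GC content and length removed on the right; axes list the genes. On the right Per2, Per3, Dbp, Ciart and Nr1d2 form a block with r between 0.529 and 0.833, and Arntl stays between -0.252 and 0.253 with all others.

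Levels of Dbp followed the GC trend of the library. Across the 20 mice, centred on group means, r was 0.924 (permutation p = 1e-05, the smallest that 100000 resamples can give, adjusted p = 0.0007 over 70 relations) and rho 0.838 (permutation p = 1e-05, adjusted p = 0.0007). Without dnFGFR OS mouse 5 r was 0.864, and without the 2 farthest mice 0.796. Ciart had an r of 0.677 with the GC trend (permutation p = 0.00165, adjusted p = 0.0385) and a rho of 0.477 (permutation p = 0.0343, adjusted p = 0.350). Without the 2 farthest mice its r was 0.229, so that the relation rests on them. For Per1 r was 0.581 (permutation p = 0.0108, adjusted p = 0.0901) with a rho of 0.266 (permutation p = 0.256, adjusted p = 0.677), and 0.0285 without the 2 farthest mice. Arntl had an r of 0.0871 (permutation test, adjusted p = 0.874). After the trend was removed, the residual SD of Dbp was 0.18 in place of 0.32. The part of the GC trend in the differences between mice was not tested.

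**Figure D5:**
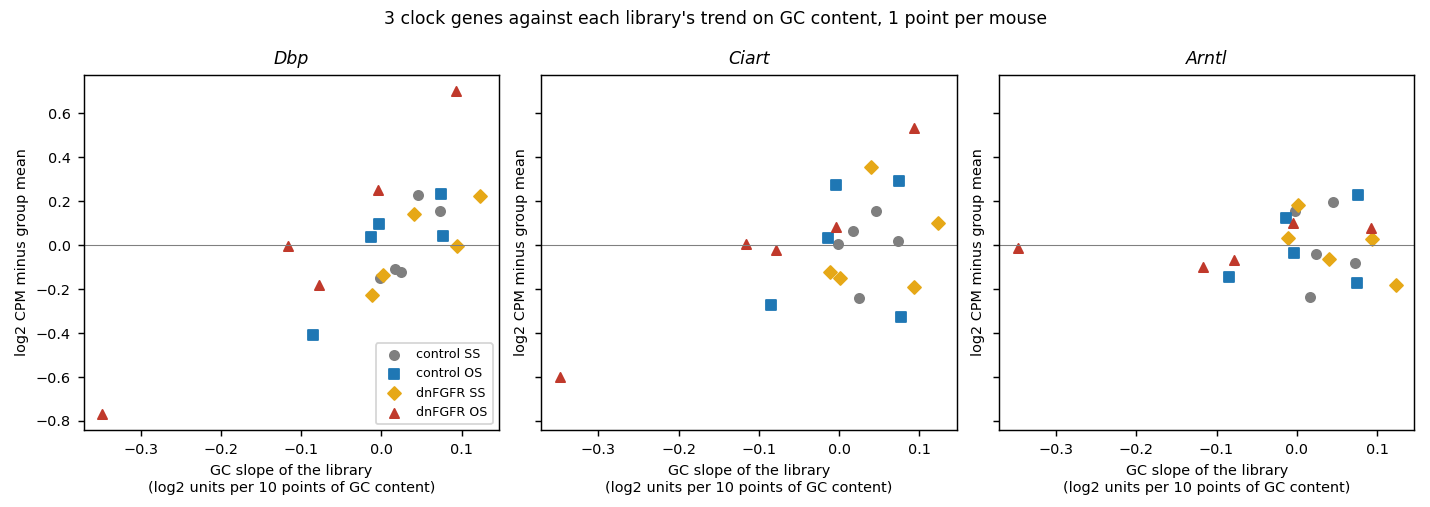
Log2 CPM minus the group mean (vertical axes) of Dbp, Ciart and Arntl against the GC slope of each library (log2 units per 10 points of GC content, horizontal axes), 1 point per mouse. Dbp climbs with the slope also among the 19 mice right of -0.12 (r = 0.864), Ciart does so mainly through dnFGFR OS mouse 5, and Arntl does not (r = 0.0871).

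Genes most like Dbp and Arntl were sought among the other genes with a mean of at least 5 CPM. The 5 highest for Dbp were Grik5 (r = 0.967), Ccdc85b (0.966), Map3k10 (0.963), Hrh3 (0.960) and Ptms (0.957), with a GC content of 54.8% to 65.3%. The 5 lowest were Ssr1 (r = -0.933), Vps13b (-0.931), Fam20b (-0.928), Nf1 (-0.926) and Tug1 (-0.926), with a GC content of 37.9% to 46.2%. For Ssr1, a translocon subunit of the endoplasmic reticulum, r was 0.0035 once the GC trend was removed. Grik5, a kainate receptor subunit, kept an r of 0.858 and Hrh3, the histamine H3 receptor, one of 0.879. For Arntl the highest were Mapk14 (r = 0.770), Ppp2r2a (0.743), Impa1 (0.723), Rad23b (0.7098) and Fbxo33 (0.693). The lowest for Arntl were Aldh4a1 (r = -0.868), Nckap1l (-0.831), Sardh (-0.817), C4a (-0.798) and Tbc1d9b (-0.778). Aldh4a1 and Sardh, mitochondrial enzymes of proline and sarcosine breakdown, kept -0.855 each after removal of the GC trend.

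Clock genes were placed in such rankings of 12588 genes to see how close they stood to each other. By r with Ciart, Dbp was the 6th, Per1 the 43rd and Per2 the 60th gene. With the GC trend removed, Per2 was the 1st, Dbp the 3rd, Per1 the 27th, Nr1d2 the 28th and Per3 the 75th gene, so that 5 of 9 clock genes were within the top 125, that is within 1% of all genes. Of 28 other clock genes on a list, Tef was then the 18th, Bhlhe40 the 25th and Bhlhe41 the 26th. Tef encodes a PAR bZIP factor like Dbp, and Bhlhe40 and Bhlhe41 encode the repressors DEC1 and DEC2. By r with Per2, Ciart was the 5th and Per3 the 14th gene as normalised, and Ciart the 2nd, Nr1d2 the 9th and Per3 the 10th with the GC trend removed. Other clock genes moved away from Per2 on that removal, Bhlhe41 from the 41st to the 127th, Tef from the 73rd to the 248th and Bhlhe40 from the 74th to the 159th place, so that 0 in place of 3 of the 28 were within the top 125. By r with Nr1d2, Per2 was the 1st and Ciart the 2nd gene with the trend removed, but the 2101st and the 5593rd as normalised. Dbp itself had Ciart only at the 658th place as normalised and at the 34th with the trend removed, when its closest gene was Sphk2 (r = 0.885), whose exons overlap its own. None of the 9 clock genes and none of the 28 others was within the top 125 for Arntl, with or without the GC trend. The ranks with the trend removed were added after the data were seen, and are descriptions over 20 mice that share library preparation and depth.

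Of the 30 other genes of the clock, 0 passed the test in any comparison by edgeR. In control mice 13 were higher and 17 lower with OS housing (median log2 fold change -0.0079), and in dnFGFR mice 17 were higher and 13 lower (0.03). At an unadjusted p under 0.05 there was 1 gene in control mice and 2 in dnFGFR mice. The smallest p in control mice belonged to Skp1a (0.11 ± 0.05), a ubiquitin ligase subunit, Rorb (0.13 ± 0.09), a nuclear receptor, and Wee1 (0.11 ± 0.07), a cell cycle kinase. In dnFGFR mice it belonged to Skp1a (0.17 ± 0.07), Cry2 (-0.13 ± 0.06), the relative of Cry1, and Csnk1e (-0.14 ± 0.07), a kinase that marks PER proteins. Between genotypes 24 of the 30 were higher in dnFGFR than in control SS mice and 25 of 30 in OS-housed mice, with medians of 0.06 and 0.08, against 0.0042 and 0.00013 for all genes. At an unadjusted p under 0.05 there were 5 and 1 of the 30, against 8.63% and 7.02% of all genes. Genotype is tied to sacrifice date here too. Markers of other tissue and cells also differed in level between genotypes, with 0 called. All 8 striatal markers were lower in dnFGFR mice, with medians of -0.18 in SS-housed and -0.27 in OS-housed mice. All 7 oligodendrocyte markers were lower too, with medians of -0.15 and -0.13. Their part in the genotype differences was not tested. Of 13 markers of the suprachiasmatic nucleus, 12 could be tested and 0 passed in either housing comparison by edgeR, with 0 at an unadjusted p under 0.05. Those with the smallest p were Rorb, Vipr2 (0.32 ± 0.21) and Syt10 (-0.21 ± 0.16) in control mice and Prokr2 (0.41 ± 0.22), Rorb (0.27 ± 0.15) and Grp (0.39 ± 0.25) in dnFGFR mice. Between genotypes, 8 of 12 of these markers were higher in dnFGFR than in control SS mice (median 0.21). In OS-housed mice 11 of 13 were higher (median 0.26). In each of these comparisons 2 had an unadjusted p under 0.05 and 0 were called by edgeR.

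Some glucocorticoid-induced genes, which share an inducer with Per1 and Per2, were higher in OS-housed than in SS-housed control mice. Of 17 tested, 5 were called higher and 0 lower by edgeR at an adjusted p under 0.1. All 17 had a positive fold change, with a median of 0.52 on the log2 scale, and 16 had an unadjusted p under 0.05, against 7.2% of all genes. Those called were Hif3a (1.47 ± 0.20), Tsc22d3 (0.69 ± 0.09), Arrdc2 (1.01 ± 0.16), Pdk4 (0.91 ± 0.15) and Sgk1 (1.02 ± 0.20), beside 0.01 ± 0.10 for Per1 and 0.24 ± 0.12 for Per2. In dnFGFR mice 0 of 17 were called by edgeR, with 0 at an unadjusted p under 0.05, and the interaction was called for 0 of 17, with 6 at an unadjusted p under 0.05. In dnFGFR mice the genes with the smallest p were Ddit4 (-0.35 ± 0.28), Glul (0.11 ± 0.10) and Pdk4 (0.22 ± 0.28). Control SS mice were also below dnFGFR SS mice, where all 17 were higher, with a median of 0.51. There edgeR called 0, with 13 at an unadjusted p under 0.05, against 8.63% of all genes. Between genotypes in OS-housed mice 11 were higher and 6 lower in dnFGFR mice, with a median of 0.02. In both, genotype is tied to date. The calls in control mice were few and moved with the setting: over all genes edgeR called 21, but 0 without control SS mouse 4, 2 without control SS mouse 5, 32 without control OS mouse 5, and 0 with all 4 groups in 1 fit, and where 0 were called neither these 5 nor Btg2, named below, passed. Control SS mice 4 and 5 are those taken in July, and with sacrifice date as a block, on the 7 control mice of dates with both housings, 1 gene was called. Choroid plexus markers moved with housing in the same mice, from a median sum of 129.5 CPM in SS mice (37.5 to 1081) to 1424 CPM in OS mice (54.3 to 1956). Of these 6 markers, all had a positive fold change and 0 were called by edgeR, with 3 at an unadjusted p under 0.05, among them Clic6 (0.53 ± 0.16). Of 5 endothelial markers 4 had a negative fold change and 0 were called, with 2 at an unadjusted p under 0.05, and Cldn5 was at -0.46 ± 0.09 (edgeR adjusted p = 0.104). The part of date and of these markers in the calls was not tested further. Across mice within groups, Per2 followed the mean log2 level of these genes with r = 0.696 (n = 20, permutation p = 0.00039, adjusted p = 0.0137 over 70 relations) and rho = 0.580 (permutation p = 0.00819, adjusted p = 0.191). Per2 kept an r of 0.648 without dnFGFR OS mouse 5, 0.589 without the 2 farthest mice and 0.724 with the GC trend removed. Per1 had an r of 0.469 with them (permutation test, adjusted p = 0.199). The adjusted p of Per2 passed 0.05 for r and not for rho.

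Of 20 immediate early genes, which neuronal activity induces as it does Per1, Btg2 fell with OS housing in control mice (-1.02 ± 0.18, edgeR adjusted p = 0.0708). It was the 1 gene called on that list, ahead of Dusp1 (-0.58 ± 0.14) and Fos (-0.56 ± 0.14), which did not pass. In these control mice 14 of the 20 were lower and 6 higher with OS housing, with a median of -0.19. An unadjusted p under 0.05 was reached by 10 of them, against 7.2% of all genes. In dnFGFR mice 0 were called by edgeR, with 1 at an unadjusted p under 0.05, and 19 of 20 had a negative fold change, with a median of -0.30, and the smallest p belonged to Junb (-0.79 ± 0.26), Nr4a1 (-0.46 ± 0.22) and Egr4 (-0.70 ± 0.36). Per1 had an r of 0.406 with the mean of these genes (permutation test, adjusted p = 0.301).

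Arntl was lower in mice with more RNA of astrocyte markers. Its r with the mean log2 level of Aqp4, Aldh1l1, Slc1a3, Gja1 and Gfap was -0.638 (n = 20, permutation p = 0.00246, adjusted p = 0.0431 over 70 relations) and rho was -0.651 (permutation p = 0.00262, adjusted p = 0.0917). The r was -0.656 without dnFGFR OS mouse 5, -0.646 without the 2 farthest mice and -0.782 with the GC trend removed. The 5 markers summed to 972 to 1346 CPM per mouse, and their part in the level of Arntl was not tested.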

How the data were processed

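Bulk RNA-seq of the POA of 20 male mice, each a separate animal, was analysed from a table of raw counts per gene that the authors deposited. Per the labels and the study's methods, reads were aligned with HISAT2 to GRCm38 and counted per RefSeq gene with Rsubread, whose strand and multi-mapping settings are not given in the sources used here. Totals ran from 32353578 to 39871353 counts per mouse. Another 20 of the 40 columns matched no sample and were not used.

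Groups came from the labels. Each comparison was fitted with edgeR 4.0.16 (TMM, filterByExpr, quasi-likelihood test) in R 4.3.3 on its own mice, with Benjamini-Hochberg adjustment over all tested genes and a threshold of 0.1. The study used DESeq2, and DESeq2 1.42.0 and limma 3.58.1 (voom) served as alternatives. Relations across mice used log2 CPM (prior count 2), computed here and centred on group means, with two-sided permutation tests of 100000 resamples (scipy 1.17.1), adjusted over 10 pairs or 70 relations and called at an adjusted p under 0.05, and a gene list entered as its mean log2 CPM. Trends on GC content and length were removed per mouse for genes that passed the filter and had both in the GENCODE M21 transcripts (longest transcript of a gene). These were 98.8% of the 17445 genes that passed the filter over 20 mice. The scripts were tested on simulated data.

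The 10 genes and all gene lists were chosen with earlier results of these data known. Named beside them were, in each list, every gene called and the 3 with the smallest p in each housing comparison, and the 5 genes with the highest and the 5 with the lowest r with Dbp and with Arntl among genes of at least 5 CPM. Other clock genes in the rankings were named after their values were seen.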

Additional observations from a re-analysis of the deposited data

Results flagged for a closer look

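Among the 40 sets of 5 values (10 genes in 4 groups), 3 held a mouse far from the other 4 of its group, where chance alone gives about 1 in 20. Per2 was 54.1 CPM in control SS mouse 1, against 37.6 to 40.5 CPM in the others of that group. Per2 was 38.4 CPM in dnFGFR OS mouse 5, against 48.7 to 51.7 CPM. Cry1 was 22.4 CPM in dnFGFR SS mouse 5, against 26.2 to 27.0 CPM. Without control SS mouse 1, Per2 was higher in dnFGFR than in control SS mice by 0.39 ± 0.12 on the log2 scale (edgeR adjusted p = 0.228). Without dnFGFR SS mouse 5, Cry1 was higher in dnFGFR SS mice by 0.23 (edgeR adjusted p = 0.288).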

How the results depend on the processing

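No clock gene was called under any of 111 combinations of comparison and setting, with a smallest adjusted p of 0.195. Of 460 fold changes under other settings, 444 kept their direction and 16 reversed, all of them small. In control mice, OS against SS housing gave 0.0015 for Ciart by limma voom and -0.011 for Per3 with the replicate block, and, with the sacrifice date as a block, -0.034 for Per1, 0.014 for Nr1d1 and 0.047 for Dbp. In dnFGFR mice Nr1d1 was 0.055 with GC content and length removed and 0.052 with the replicate block as well. The interaction by limma voom was -0.011 for Npas2, -0.019 for Cry1 and -0.0098 for Nr1d2, and with GC content and length removed 0.065 for Nr1d1 and -0.018 for Nr1d2 (0.066 and -0.019 with the replicate block as well). Between genotypes in OS-housed mice Nr1d1 was -0.044 by limma voom and -0.0056 with the replicate block. The cause of these reversals was not tested.

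Leaving out each mouse in turn reversed 47 of 600 fold changes. The ranges were, in control mice, -0.061 to 0.073 for Per1, -0.085 to 0.077 for Per3, -0.059 to 0.014 for Nr1d1 and -0.0065 to 0.089 for Nr1d2, and in dnFGFR mice -0.074 to 0.017 for Arntl, -0.61 to -0.25 for Dbp and -0.33 to -0.055 for Ciart. For the interaction they were -0.023 to 0.11 for Npas2, -0.033 to 0.061 for Cry1, -0.11 to 0.024 for Nr1d1 and -0.21 to 0.056 for Ciart. Between genotypes they were -0.023 to 0.082 for Arntl and -0.014 to 0.045 for Nr1d2 in SS-housed mice, and -0.14 to 0.011 for Per2, -0.11 to 0.051 for Per3, -0.082 to 0.048 for Nr1d1 and -0.022 to 0.25 for Ciart in OS-housed mice.

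Of the pairs, r reversed within the 10 control mice for Arntl with Nr1d1 (-0.313), Npas2 with Ciart (0.00733) and Arntl with Npas2 (-0.567). Spearman rho was -0.0226 for Npas2 with Nr1d1 and -0.0947 for Arntl with Npas2. Without the 2 mice farthest from the median Npas2 with Nr1d1 was -0.172. With GC content and length removed and dnFGFR OS mouse 5 left out, which was chosen after seeing the data, Npas2 had r of 0.248 with Dbp and 0.237 with Ciart. Dbp with Nr1d1 was 0.696 within control mice, 0.679 within dnFGFR mice, 0.197 with GC content removed and 0.505 with that and dnFGFR OS mouse 5 left out, none of which passed the threshold of pairs, an adjusted p of 0.05 (adjusted p = 0.0931 by the permutation test for the last), while Npas2 with Nr1d1 passed it at 0.644 with GC content removed and not, at 0.553, with dnFGFR OS mouse 5 left out as well (permutation test, adjusted p = 0.0732). Leaving out each mouse gave -0.243 to 0.017 for Arntl with Ciart, -0.483 to 0.0554 for Npas2 with Dbp, -0.0644 to 0.266 for Npas2 with Nr1d1, -0.303 to 0.109 for Npas2 with Ciart, -0.172 to 0.109 for Arntl with Npas2 and 0.441 to 0.729 for Dbp with Nr1d1.

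Between mice of the same number, deviations from the group mean had correlations of -0.235 to 0.259. These were not set against other pairs of mice, so they cannot tell whether the numbers pair the mice. With the replicate block 0 clock genes were called, and all genes called numbered 23, 0, 0, 41 and 3 in place of 21, 0, 0, 34 and 9. Counts over all genes moved more: for housing in control mice (21) they were 157 by DESeq2, 66 by limma voom, 43 with GC content removed (65 with the block), 32 with at least 10 counts in every mouse, 6 at an adjusted p under 0.05, 1 with the date block and 0 with all 4 groups in 1 fit, and 0 to 32 leaving out a mouse. For genotype they were 223 by DESeq2, 52 with GC content removed and 21 to 70 leaving out a mouse in SS-housed mice (34), and 78 by DESeq2, 45 with all 4 groups and 3 to 16 leaving out a mouse in OS-housed mice (9). For housing in dnFGFR mice DESeq2 called 5 genes, and no other setting called any. With 5 mice a group, sacrifice hour not given and genotype tied to date, mice could not be compared by clock time.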
